A study of Bos taurus with 9 samples.

Results

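The glutathione, thioredoxin and antioxidant genes described here are 52 genes of the 22127 in a table of bovine blastocyst transcripts. They were chosen by symbol, with earlier results of these data known. The families were glutathione transferase (GST and MGST), glutathione peroxidase (GPX), peroxiredoxin (PRDX) and thioredoxin reductase (TXNRD). The single genes were both thioredoxins, SOD1 to SOD3, catalase (CAT), NQO1, HMOX1, GCLC, GCLM, GSS, GSR, GLRX, GLRX2, SRXN1, NFE2L2 and KEAP1. The 52 genes carry 50 symbols, since GSTM1 and GSTP1 each stand for a pair of genes. Of the 52, 51 passed the filter on low counts, and GPX5 did not.

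Cells keep peroxides and reactive electrophiles low with a pair of thiol systems that both draw on NADPH. In the first, GCLC, GCLM and GSS make glutathione, GSR keeps it reduced, peroxidases spend it on hydroperoxides and transferases attach it to electrophiles. In the second, thioredoxin reductases reduce thioredoxins, which in turn reduce most peroxiredoxins. The transcription factor NRF2 (gene NFE2L2) induces many of these enzymes when its inhibitor KEAP1 is modified by electrophiles. Early embryos in culture are known to be sensitive to oxidative stress.

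RNA sequencing measured 9 libraries, each from pooled blastocysts at day 8. Cumulus-oocyte complexes had spent 24 hours in 1 of 3 maturation media, with 3 libraries for each: control at 5.5 mM glucose, low glucose at 2.75 mM, and low glucose at 2.75 mM with 1.8 mM BHB (read here as beta-hydroxybutyrate, a ketone body; the labels give only the letters). After maturation, all groups shared in vitro fertilisation and the same embryo culture, so the media differed only while oocytes matured. A pool held 9 to 11 embryos, which averages embryos and cell types.

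Total estimated counts ran from 55611205 to 75178898 per library, and log2 CPM correlated at 0.951 to 0.976 within groups. Nothing in the labels ties the replicates to separate cultures, and the p-values therefore reflect the spread among these pools alone, part of which may be technical. The trophectoderm gene KRT8 measured 7475 to 10820.1 CPM (counts scaled to library size by TMM factors) and the pluripotency gene POU5F1 888 to 1101 CPM, as the tissue label has it. In such bulk samples, fewer cells of a type and less RNA per cell cannot be told apart.

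One member passed the edgeR test. GSTA1, an alpha class glutathione transferase, fell in the blastocysts of both low glucose media, from a mean of 15.4 ± 4.34 CPM in control (SD, n = 3) to 1.23 ± 0.343 in low glucose and 2.06 ± 1.10 with BHB. The extracellular superoxide dismutase SOD3 and the peroxidase GPX8 were also lower in both media and did not pass by edgeR. DESeq2 called both in low glucose and GPX8 with BHB, and limma-voom called SOD3 in both media. The members with the most counts, among them the peroxiredoxins, thioredoxins, GPX1, GPX4, SOD1, SOD2 and CAT, differed from control by at most 0.22 on the log2 scale. No member passed by any of the 3 tools between the media with and without BHB.

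In low glucose against control, 1 of 51 tested members was lower at an edgeR adjusted p under 0.05, which is 1.96%, and 2.02% of all 16469 tested genes were lower. No member was higher, against 0.00607% of all genes (1 gene). At an unadjusted p under 0.05, 6 members were lower (11.8%, against 6.33% of all genes) and 0 were higher (against 0.996%). Of the members, 28 had a log2 fold change below 0 and 23 above, with a median of -0.05 beside 0.02 over all genes. All 3 low glucose libraries lay below all 3 control libraries for 6 members, GSTA1, both GSTM1 genes, GPX8, PRDX6 and SOD3 (11.8%, against 8.85% of all genes), and above for 0 (against 4.3%).

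With BHB against control, GSTA1 was again the 1 member that was lower (1.96%, against 1.38% of all genes), and 0 were higher (against 0.00607%). At an unadjusted p under 0.05, 7 members were lower (13.7%, against 5.5% of all genes) and 0 higher (against 1.82%). The median log2 fold change of the members was -0.03, beside 0.01 over all genes. The BHB libraries lay below control without overlap for GSTA1, GSTA4, 1 of the GSTM1 genes, GSTO1, GPX8 and SOD3 (11.8%, against 8.56%), and above it for KEAP1 (1.96%, against 4.75%). Both comparisons use the same 3 control libraries.

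Between the low glucose media, edgeR called 0 members lower and 0 higher, and 0% of all genes in either direction. At an unadjusted p under 0.05 there were 0 members in each direction, against 0.589% of all genes lower and 1.05% higher with BHB. DESeq2 and limma-voom also called 0 members here. The BHB libraries lay below those of low glucose for GSTZ1 (1.96%, against 2.55% of all genes) and above for GSTA2 and a GSTM1 gene (3.92%, against 2.97%).

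**Figure D1:**
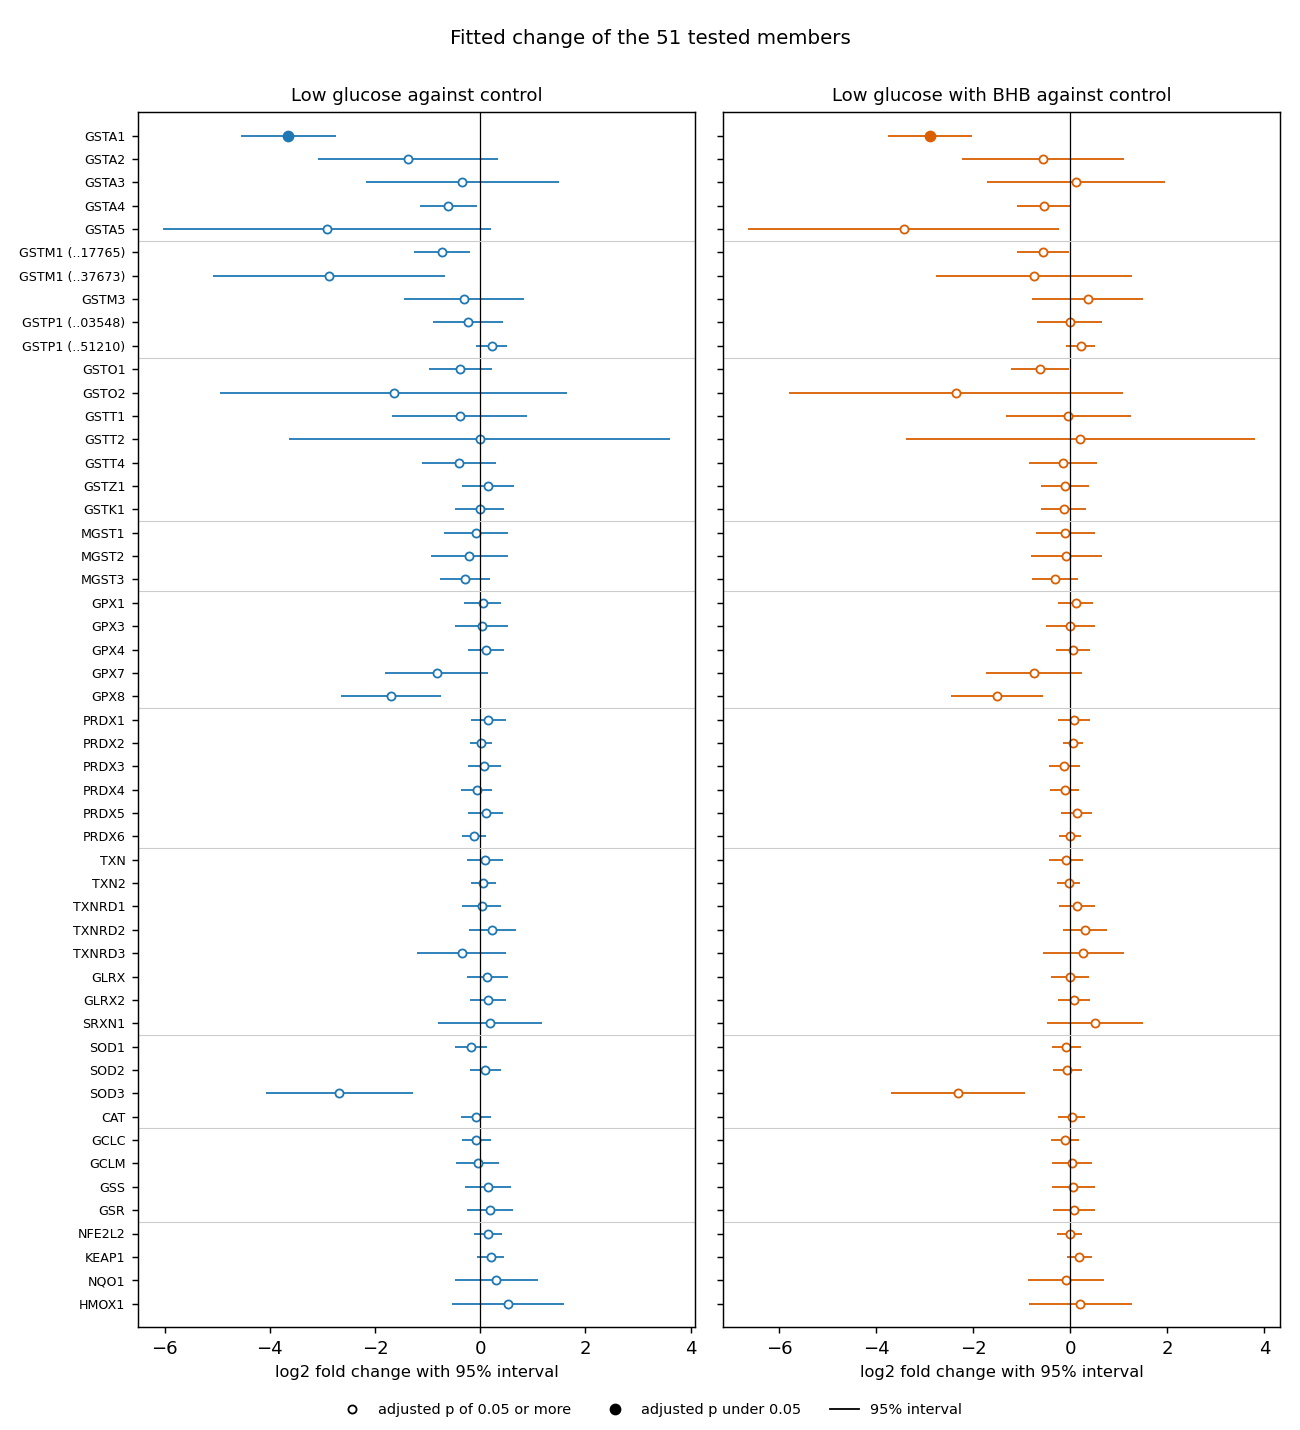
Fitted log2 fold changes of the 51 tested members against control (x axis, with 95% intervals), grouped by role from the alpha class transferases at the top to the NRF2 group at the bottom. Filled points have an adjusted p under 0.05: only GSTA1 is filled, at -3.65 in low glucose and -2.89 with BHB, while SOD3 at -2.68 and -2.32 has unfilled points.

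The alpha class transferases (GSTA1 to GSTA5) conjugate glutathione to electrophiles and reduce lipid hydroperoxides. GSTA1 (ENSBTAG00000021516) measured 16.9, 10.5 and 18.7 CPM in the control libraries, 1.43, 1.41 and 0.830 in low glucose, and 1.11, 3.27 and 1.80 with BHB. Every library of the low glucose media lay well below every control library, and the low glucose and BHB groups overlapped. The log2 fold change was -3.65 (SE 0.412, 95% interval -4.54 to -2.75, edgeR adjusted p = 0.00110) in low glucose and -2.89 (SE 0.397, interval -3.76 to -2.03, adjusted p = 0.00433) with BHB. Between the media with and without BHB, the difference was 0.75 (interval -0.09 to 1.59, adjusted p = 1.000). The smallest of these values rests on 48.9 estimated counts.

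In RefSeq's gene order (assembly ARS-UCD2.0, used here for names and order alone), GSTA2, GSTA1 and GSTA5 follow one another among the members. GSTA3 and GSTA4 come next. Related copies can share reads, but how similar these are was not measured. GSTA1 and GSTA2 held values that are not whole in all 9 libraries, as shared reads give. So did other members such as CAT, NFE2L2 and PRDX6. Summed over GSTA1, GSTA2 and GSTA5, the libraries held 20.3, 11.6 and 19.0 CPM in control, 1.79, 1.77 and 1.19 in low glucose, and 1.41, 3.99 and 2.24 with BHB. The sum separated control from both media as GSTA1 alone did, and it passed the test in both when the 3 were fitted as 1 feature.

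The other alpha class genes did not pass. GSTA4, which prefers lipid aldehydes such as 4-hydroxynonenal, measured 11.0, 6.61 and 8.06 CPM in control, 4.73, 7.19 and 4.94 in low glucose, and 5.33, 6.18 and 5.96 with BHB. Low glucose overlapped control through its replicate 2, while the BHB libraries lay just under the lowest control (log2 fold changes -0.60 and -0.55, adjusted p = 0.542 and 0.666). GSTA5 measured 2.37, 0.566 and 0.0298 CPM in control, 0.108, 0.0992 and 0.189 in low glucose, and 0, 0.243 and 0.0182 with BHB. Control replicate 1 alone set its control mean, the groups overlapped, and with BHB the log2 fold change of -3.43 had an interval from -6.63 to -0.23 (adjusted p = 0.616). GSTA2 ranged from 0.169 to 1.01 CPM and GSTA3 from 0.225 to 2.92 CPM, and their intervals include 0 in all 3 comparisons.

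**Figure D2:**
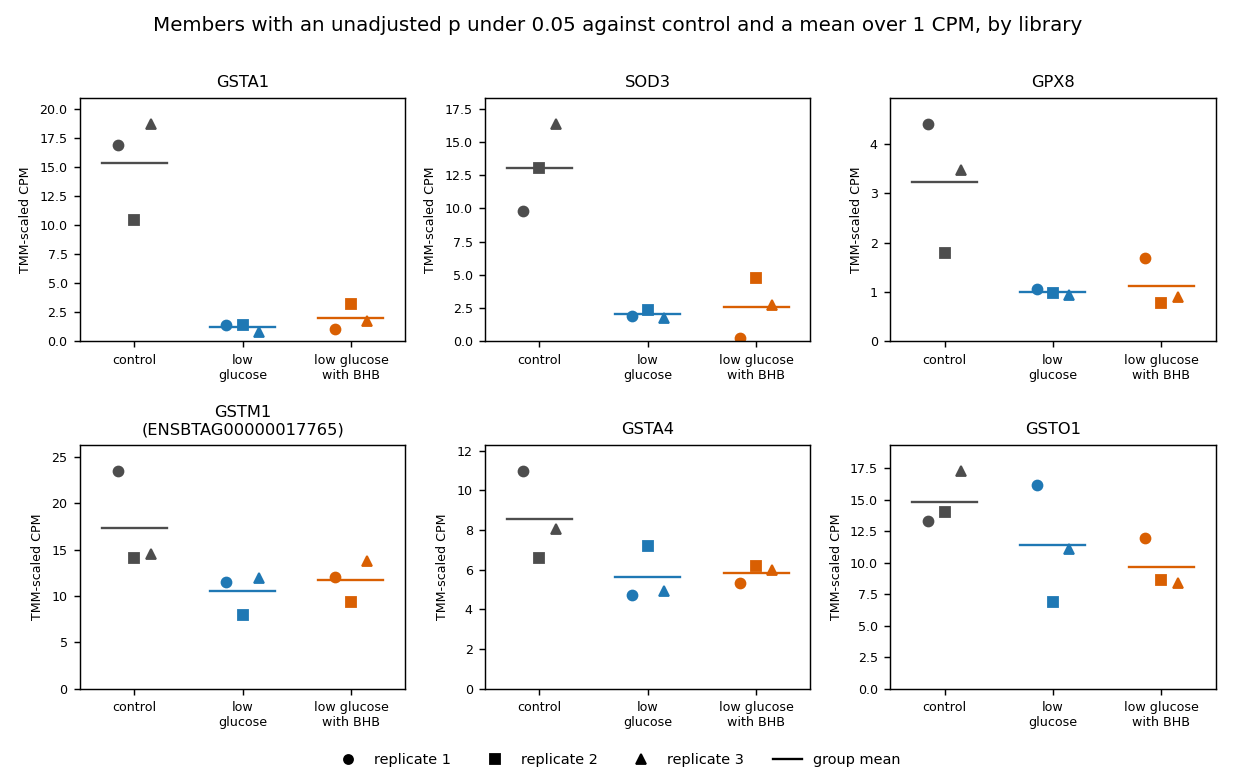
TMM-scaled CPM (y axis, from 0) in each library for 6 members with an unadjusted p under 0.05 against control and a mean over 1 CPM; symbols mark replicates and lines group means. The control points of GSTA1 (10.5 to 18.7) and SOD3 (9.81 to 16.3) sit far above those of both low glucose media, while in low glucose GSTA4 and GSTO1 overlap control.

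Among the mu and pi class transferases, edgeR, DESeq2 and limma-voom called 0 of 5 in any comparison. At an unadjusted p under 0.05, 2 were lower in low glucose (40%, against 6.33% of all genes) and 1 with BHB (20%, against 5.5%). The GSTM1 gene with more counts (ENSBTAG00000017765) measured 23.5, 14.1 and 14.5 CPM in control, 11.5, 7.95 and 12.0 in low glucose, and 12.1, 9.38 and 13.7 with BHB. Both media lay below all control libraries by a narrow margin (-0.73 with adjusted p = 0.274, and -0.57 with adjusted p = 0.618). The other GSTM1 gene (ENSBTAG00000037673) measured 0.739, 0.251 and 0.609 CPM in control, 0.153, 0.0422 and 0.0170 in low glucose, and 0.509, 0.256 and 0.182 with BHB. Its low glucose libraries were the lowest of all 9, and the log2 fold change of -2.88 had an SE of 1.01 (adjusted p = 0.333).

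GSTP1, the pi class transferase that also binds stress kinases, ran the other way in its main gene without passing. That gene (ENSBTAG00000051210) measured 385, 496 and 521 CPM in control, 517, 575 and 537 in low glucose, and 489, 631 and 511 with BHB. The groups overlapped, with a log2 fold change of 0.22 in each medium (interval -0.08 to 0.51 in low glucose and -0.08 to 0.52 with BHB). The second GSTP1 gene (ENSBTAG00000003548) measured 2.72, 1.99 and 2.69 CPM in control, 2.32, 1.94 and 2.04 in low glucose, and 2.90, 2.58 and 1.85 with BHB, again with overlap. Both GSTP1 genes held values that are not whole in all 9 libraries, so their split between copies may be uncertain. The first GSTM1 gene did too, while the second held whole values in every library. Which genes share reads with the first was not measured. GSTM3 ranged from 0.458 to 1.46 CPM.

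Of the other 7 soluble transferases, none passed against control by edgeR, DESeq2 or limma-voom. An unadjusted edgeR p under 0.05 went to GSTO1 alone, lower with BHB (14.3%, against 5.5% of all genes). GSTO1, an omega class enzyme that reduces dehydroascorbate and arsenic compounds, measured 13.3, 14.0 and 17.3 CPM in control, 16.2, 6.90 and 11.1 in low glucose, and 12.0, 8.63 and 8.42 with BHB. Only the BHB libraries stayed below control (log2 fold change -0.62, adjusted p = 0.652), while replicate 1 of low glucose reached the control range. GSTK1, the kappa class enzyme of mitochondria and peroxisomes, measured 11.2, 11.8 and 9.65 CPM in control, 8.96, 9.40 and 14.0 in low glucose, and 8.94, 8.99 and 11.7 with BHB. Its groups overlapped. GSTO2, GSTT1, GSTT2, GSTT4 and GSTZ1 had means under 6 CPM, with intervals that include 0 in each comparison.

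The membrane transferases MGST1 to MGST3 showed no difference that passed. MGST2, which can make leukotriene C4, measured 9.43, 20.6 and 23.3 CPM in control, 13.4, 18.9 and 14.0 in low glucose, and 10.1, 17.9 and 22.4 with BHB. MGST3 measured 21.0, 20.1 and 13.8 CPM in control, 15.7, 12.8 and 16.4 in low glucose, and 18.3, 11.0 and 14.9 with BHB. In both genes the spread within control covered the other groups or nearly so. MGST1 ranged from 6.32 to 13.4 CPM.

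Among the glutathione peroxidases, none passed by edgeR. GPX1, the cytosolic selenoenzyme that reduces hydrogen peroxide, measured 285, 239.7 and 216 CPM in control, 249, 224 and 294 in low glucose, and 328, 236 and 234 with BHB. GPX4, which reduces phospholipid hydroperoxides and protects cells from ferroptosis, measured 162, 185 and 218 CPM in control, 215, 221 and 170.2 in low glucose, and 194, 228 and 163 with BHB. Both overlapped across all groups, with intervals against control from -0.30 to 0.46 for GPX1 and from -0.29 to 0.44 for GPX4.

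GPX8, a peroxidase of the endoplasmic reticulum, measured 4.40, 1.78 and 3.48 CPM in control, 1.07, 0.985 and 0.933 in low glucose, and 1.69, 0.783 and 0.909 with BHB. All 6 libraries of the low glucose media lay below the lowest control library, replicate 2. The log2 fold changes were -1.69 (SE 0.435, edgeR adjusted p = 0.0845) in low glucose and -1.51 (SE 0.433, adjusted p = 0.177) with BHB. DESeq2 called both (adjusted p = 0.0114 and 0.0470), and edgeR called low glucose without control replicate 2 (adjusted p = 0.0468). GPX7, its close relative in the same compartment, had log2 fold changes of -0.83 and -0.75 with intervals that include 0. GPX3 ranged from 3.87 to 5.73 CPM, with log2 fold changes of 0.03 in low glucose and 0.0002 with BHB. GPX5, the untested member, was at 0 in 7 libraries and at 0.0283 CPM or less in the others.

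Most peroxiredoxins reduce peroxides with thioredoxin. PRDX1 took 19.0% and PRDX2 16.0% of the members' counts, a share that is not scaled by transcript length. PRDX1 measured 697, 992 and 856 CPM in control, 923, 981 and 929 in low glucose, and 734, 1058 and 884 with BHB. PRDX2 measured 692, 789 and 750.04 CPM in control, 747, 779.6 and 733 in low glucose, and 754, 807 and 754 with BHB. The groups of both genes overlapped, and the interval of PRDX2 in low glucose, -0.19 to 0.23, was among the narrowest of the members. The other 4 peroxiredoxins had log2 fold changes from -0.12 (PRDX6) to 0.10 (PRDX5) in low glucose and from -0.13 (PRDX3) to 0.13 (PRDX5) with BHB. PRDX6, which also carries a phospholipase activity, lay below control in all 3 low glucose libraries (175 to 181 against 184 to 212 CPM), with an adjusted p of 0.997.

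The thioredoxin and glutaredoxin genes did not pass in any comparison. GLRX, which removes glutathione from proteins, measured 242, 378 and 324 CPM in control, 336, 344 and 356 in low glucose, and 237, 339 and 366 with BHB. TXN, the cytosolic thioredoxin, measured 198, 255 and 209 CPM in control, 277, 240.4 and 189 in low glucose, and 179, 234 and 208 with BHB. Replicate 1 of control and of BHB was the lowest for GLRX, and all groups overlapped for both genes. TXNRD1, the cytosolic reductase and an NRF2 target, measured 201, 200.2 and 180.2 CPM in control, 218, 214 and 160.4 in low glucose, and 188, 274 and 178 with BHB. SRXN1, the sulfiredoxin that repairs overoxidised peroxiredoxins, measured 1.45, 4.78 and 6.17 CPM in control, 3.94, 5.98 and 4.24 in low glucose, and 4.41, 8.85 and 4.33 with BHB. BHB replicate 2 was the highest library for both, and the groups overlapped. TXN2, GLRX2, TXNRD2 and TXNRD3 had log2 fold changes against control from -0.35 (TXNRD3, low glucose) to 0.31 (TXNRD2, BHB).

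Superoxide dismutases turn superoxide into hydrogen peroxide, and the 3 enzymes sit in different places. SOD3, which is secreted and bound to extracellular matrix, measured 9.81, 13.01 and 16.3 CPM in control, 1.92, 2.38 and 1.80 in low glucose, and 0.295, 4.78 and 2.76 with BHB. The low glucose libraries were close together and far under control, while the BHB libraries were also under control but spread widely, with replicate 1 at 18.0 counts. The log2 fold changes were -2.68 (SE 0.643, edgeR adjusted p = 0.0587) and -2.32 (SE 0.633, adjusted p = 0.143).

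The SOD3 call differed with the libraries and settings used. Without BHB replicate 1 both comparisons passed (edgeR adjusted p = 0.000562 in low glucose and 0.0306 with BHB), and the same held without BHB replicate 2 (0.0220 and 0.0436). From the 6 libraries of control and low glucose alone, the adjusted p was 0.000448. With all 9 libraries, edgeR called it in low glucose when no filter on low counts was set (0.0261). DESeq2 called SOD3 in low glucose (0.0287), and limma-voom called it in both media (0.0306 and 0.0349). The low glucose value stayed near -2.68 in these fits, while the BHB value was -1.79 without replicate 1 and -3.10 without replicate 2.

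None of the intracellular enzymes passed by edgeR, DESeq2 or limma-voom. SOD1 of the cytosol measured 70.6, 93.3 and 67.3 CPM in control, 72.2, 68.1 and 64.8 in low glucose, and 67.2, 72.3 and 78.8 with BHB. SOD2 of mitochondria measured 71.6, 87.5 and 70.0 CPM in control, 82.1, 88.0 and 75.1 in low glucose, and 66.5, 85.2 and 67.8 with BHB. CAT, the peroxisomal catalase, measured 72.1, 64.7 and 64.9 CPM in control, 74.3, 61.7 and 54.6 in low glucose, and 70.7, 64.1 and 70.8 with BHB. All 3 overlapped across the groups, and their log2 fold changes against control lay between -0.17 and 0.10.

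For glutathione synthesis and reduction, 0 of 4 genes passed by edgeR, DESeq2 or limma-voom, and 0 had an unadjusted p under 0.05. GCLC, the catalytic subunit of the limiting enzyme, measured 54.0, 65.4 and 57.4 CPM in control, 63.7, 54.2 and 50.3 in low glucose, and 57.5, 56.5 and 49.7 with BHB. GCLM, its modifier subunit, measured 20.2, 14.0 and 16.9 CPM in control, 20.2, 15.3 and 13.9 in low glucose, and 16.6, 19.6 and 16.4 with BHB. GSR, the glutathione reductase, measured 64.4, 72.0 and 72.1 CPM in control, 107, 77.0 and 53.7 in low glucose, and 68.7, 82.4 and 68.9 with BHB. GSR spread most within low glucose, from both the highest to the lowest library of all 9. GSS ranged from 12.2 to 21.0 CPM, and intervals against control for the 4 genes ran from -0.46 (GCLM, low glucose) to 0.62 (GSR, low glucose).

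The regulator NFE2L2 measured 82.6, 88.8 and 83.1 CPM in control, 106, 89.7 and 85.6 in low glucose, and 76.1, 92.2 and 83.6 with BHB. Its inhibitor KEAP1 measured 46.3, 50.5 and 51.7 CPM in control, 50.9, 62.1 and 57.0 in low glucose, and 56.5, 59.8 and 52.5 with BHB. NFE2L2 overlapped across groups, whereas every BHB library exceeded control for KEAP1, by a log2 fold change of 0.19 (interval -0.07 to 0.44, edgeR adjusted p = 0.886). NQO1, a quinone reductase and standard NRF2 target, measured 3.53, 2.09 and 2.97 CPM in control, 4.26, 2.44 and 3.92 in low glucose, and 2.33, 3.89 and 1.84 with BHB, with overlap.

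HMOX1, the stress-induced haem oxygenase, measured 6.37, 6.26 and 7.92 CPM in control, 6.95, 15.6 and 6.90 in low glucose, and 3.51, 15.5 and 4.60 with BHB. Replicate 2 of both low glucose media stood above every other library, and the remaining BHB libraries were the lowest of all 9. The log2 fold changes were 0.52 (interval -0.55 to 1.59) and 0.21 (interval -0.86 to 1.27). Whether these 2 pools share a culture or a day is not given in the labels.

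**Figure D3:**
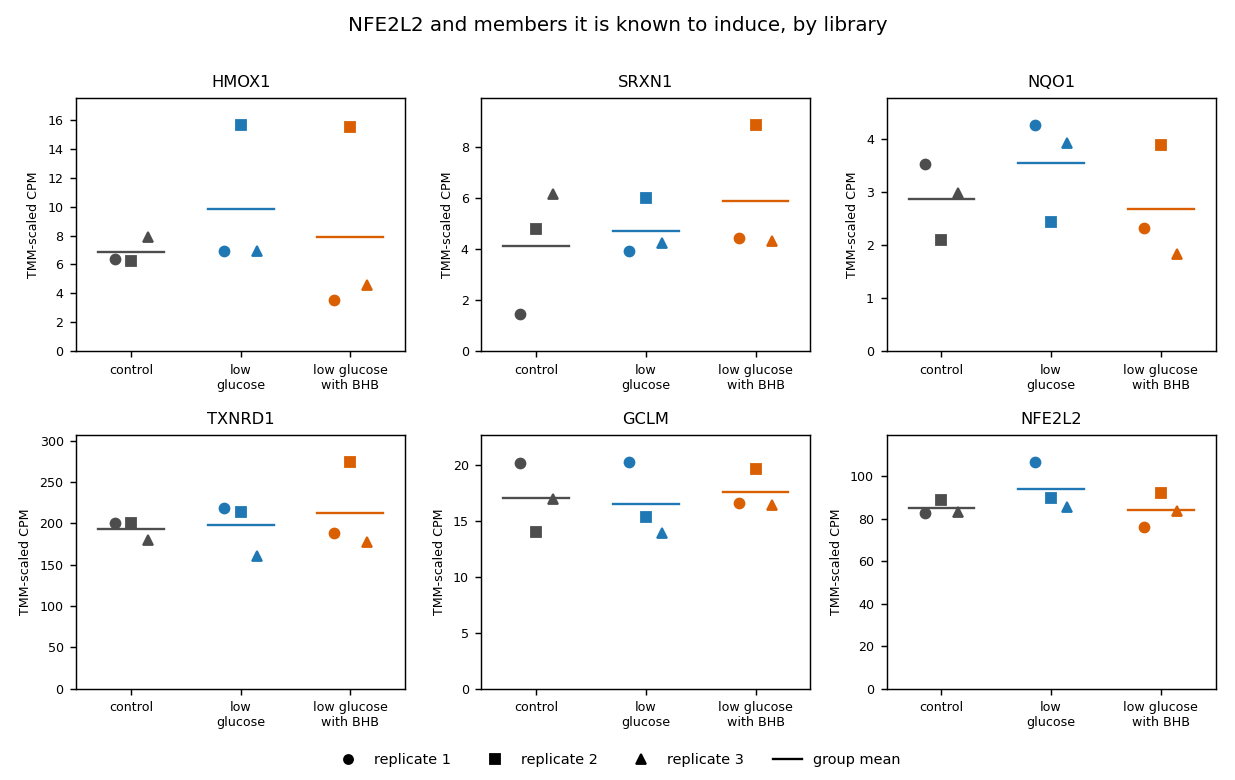
TMM-scaled CPM (y axis, from 0) of NFE2L2 and 5 members it is known to induce, in each library; symbols mark replicates and lines group means. Replicate 2 of both low glucose media is the highest for HMOX1 (15.6 and 15.5), and BHB replicate 2 is the highest for SRXN1 (8.85) and TXNRD1 (274), while NFE2L2 stays between 76.1 and 106 in all 9 libraries.

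The members were measured with unequal precision. For the 20 members with a mean of at least 50 CPM, log2 fold changes ran from -0.17 to 0.22 in low glucose and from -0.13 to 0.22 with BHB, and the widest intervals reached -0.47 and 0.62 in low glucose and -0.44 and 0.52 with BHB. For the 31 tested members under 50 CPM, SEs ran from 0.154 to 1.66 in low glucose. Counts alone did not order the SEs. In low glucose against control the SE was 0.643 for SOD3 (106 to 1099 counts) and 0.227 for GSTZ1 (246 to 395 counts). The spread in this fit came from all 9 libraries, where the lowest counts, in BHB replicate 1, were 18.0 and 229. In simulated data of this design, the test recovered 46% of 2-fold and 71% of 4-fold changes in low glucose and 44% and 65% with BHB. Of the calls made there at an adjusted p under 0.05, 4.1% were false in low glucose and 8.4% with BHB. Between the low glucose media, 9.17% were false. These shares are over all 16469 genes, and recovery among the members alone was not tested.

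Summed over all 52 genes, the members held 4173 to 4980 CPM in control, 4667 to 4946 in low glucose and 4380.4 to 5187 with BHB, and took 0.447% to 0.511% of each library's counts. By role, the alpha class sum separated control (33.5, 19.1 and 27.8 CPM) from low glucose (7.89, 9.19 and 7.50) and BHB (7.63, 13.1 and 8.44) without overlap. The NRF2 group sum was 139, 148 and 146 CPM in control, 169, 170.0 and 153 in low glucose, and 138, 171 and 143 with BHB, so low glucose lay above control and BHB did not. The other soluble transferases were lower than control in all 3 BHB libraries (26.6 to 30.4 against 33.9 to 38.3 CPM). In the remaining 7 role groups the 3 media overlapped. These sums were not tested, and each follows its members with the most counts.

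**Figure D4:**
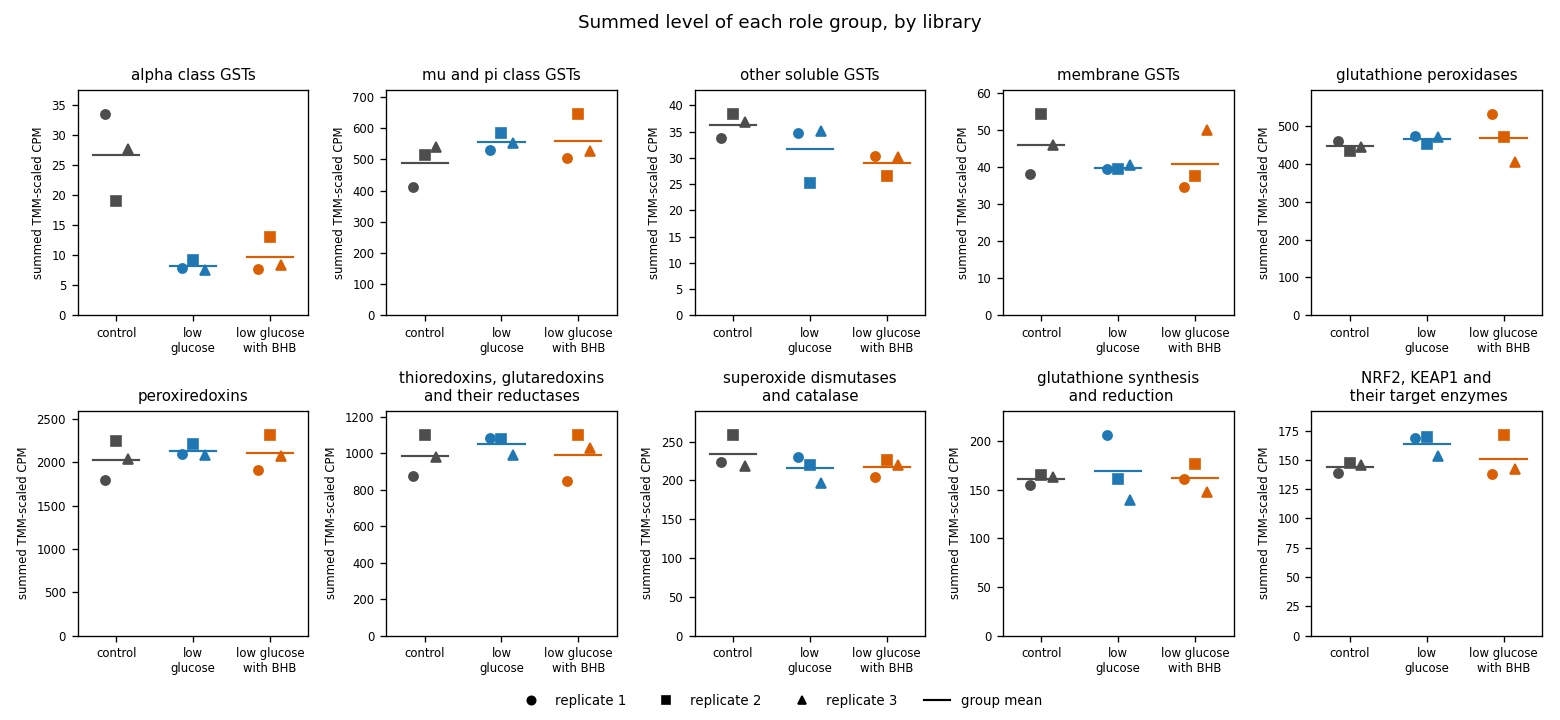
Summed TMM-scaled CPM (y axis, from 0) of each of the 10 role groups in each library; symbols mark replicates and lines group means. Only the alpha class transferases fall far apart by medium, from 19.1 to 33.5 in control to at most 13.1 in the others, and peroxiredoxin sums lie between 1803 and 2319 in all libraries.

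Counting which library held a member's extreme value, control replicate 1 was the lowest library for 10 of 51 tested members (19.6%, against 21.8% of all tested genes) and the highest for 9 (17.6%, against 17.5%). BHB replicate 1 was the lowest for 13 (25.5%, against 13.6%), and control replicate 2 was the highest for 8 (15.7%, against 6.75%) and the lowest for 0 (against 6.56%).

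Genes that supply or surround these enzymes were taken from lists, and in low glucose against control the calls in them were all lower. The lists were chosen with earlier results of these data known, so the shares called in them do not test enrichment. Of 27 tested regulators and further targets of NRF2, edgeR called 0 in any comparison. At an unadjusted p under 0.05, 2 were lower (7.41%, against 6.33% of all genes) and 0 higher (against 0.996%) in low glucose. With BHB, 2 were lower (7.41%, against 5.5%) and 1 higher (against 1.82%). The smallest p was that of TXNIP, the thioredoxin inhibitor that high glucose induces, at 39.4, 18.1 and 24.7 CPM in control, 11.7, 6.31 and 15.05 in low glucose, and 15.8, 14.7 and 15.5 with BHB. Every library of the low glucose media lay below control for TXNIP (log2 fold change -1.31, edgeR adjusted p = 0.0575, and -0.84, adjusted p = 0.441). DESeq2 called it in low glucose (adjusted p = 0.000975), as did edgeR without control replicate 2 (0.0314) or low glucose replicate 3 (0.0436). NFE2L1, a relative of NFE2L2, had -0.24 in low glucose and MAFK, its small Maf partner, 0.43 with BHB, neither past the threshold.

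Of 23 glutathione supply and turnover genes, 1 fell in low glucose (4.35%, against 2.02% of all genes), and edgeR, DESeq2 and limma-voom called 0 with BHB. At an unadjusted p under 0.05 with BHB, 1 was lower (4.35%, against 5.5% of all genes) and 3 were higher (against 1.82%). GGT7, a member of the gamma-glutamyltransferase family, measured 3.27, 2.69 and 3.50 CPM in control, 1.303, 1.08 and 0.645 in low glucose, and 1.07, 1.61 and 1.53 with BHB. Its low glucose call (log2 fold change -1.64, edgeR adjusted p = 0.0414) was lost in 8 of 9 fits that left out 1 library, all but that without BHB replicate 1, with adjusted p from 0.0501 to 0.184, and in the fit of the 6 libraries compared (0.0559). CBS, which opens the route from homocysteine to cysteine, had 0.52 with BHB (adjusted p = 0.291).

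Of 19 tested NADPH supply genes, 1 fell in low glucose (5.26%, against 2.02% of all genes). ME1, the cytosolic malic enzyme, measured 5.85, 5.95 and 6.17 CPM in control, 2.89, 1.41 and 1.80 in low glucose, and 2.12, 2.31 and 2.67 with BHB. The log2 fold change was -1.56 in low glucose (edgeR adjusted p = 0.0179) and -1.34 with BHB (adjusted p = 0.0541). The first call was lost without any 1 control library or without low glucose replicate 2 or 3 (adjusted p from 0.0524 to 0.0919), and the second was gained without low glucose replicate 1 or 2 (0.0298 and 0.0489). With BHB, ME1 was also called by DESeq2 (0.00218), by limma-voom (0.0295) and from the 6 libraries compared (0.0319). NNT, the mitochondrial transhydrogenase, had -0.84 and -0.66 (edgeR adjusted p = 0.0760 and 0.281), and DESeq2 called it in low glucose (0.00972).

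Of 32 other thioredoxin-fold, sulfoxide repair and selenoprotein genes, 2 fell in low glucose (6.25%, against 2.02% of all genes) and 1 with BHB (3.12%, against 1.38%). SELENON, a selenoprotein of the endoplasmic reticulum, measured 30.6, 18.5 and 27.3 CPM in control, 14.4, 9.53 and 9.18 in low glucose, and 12.8, 9.49 and 12.6 with BHB. Control stood above both media without overlap (log2 fold changes -1.21 and -1.13, edgeR adjusted p = 0.0185 and 0.0354). SELENOM, a thioredoxin-fold selenoprotein of the same compartment, measured 2.99, 4.03 and 3.69 CPM in control, 0.534, 1.31 and 0.390 in low glucose, and 0.607, 1.71 and 1.31 with BHB. It too was lower than control in every library of both media, with log2 fold changes of -2.25 (adjusted p = 0.0447) and -1.56 (adjusted p = 0.283). Without control replicate 1 or 3 all of these calls were lost, with adjusted p from 0.0889 to 0.170. The low glucose call of SELENON was also lost without low glucose replicate 2 or 3 (0.106 and 0.0881), and its BHB call without any 1 BHB library (0.0872 to 0.117). The call of SELENOM was also lost without control replicate 2 (0.141), low glucose replicate 1 (0.201) or 3 (0.163), or BHB replicate 3 (0.0719). DESeq2 also called MSRB3 of this list lower in low glucose, which edgeR and limma-voom did not.

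Of 24 tested reactive oxygen sources and stress sensors, 3 fell in both media (12.5%, against 2.02% of all genes in low glucose and 1.38% with BHB). MAOA, an outer mitochondrial amine oxidase that releases hydrogen peroxide, measured 4.05, 5.28 and 3.83 CPM in control, 0.855, 0.760 and 1.10 in low glucose, and 1.05, 1.52 and 0.782 with BHB. HIF1A, the oxygen-sensed transcription factor, measured 77.98, 107 and 94.1 CPM in control, 46.1, 42.7 and 36.9 in low glucose, and 34.6, 55.2 and 50.7 with BHB. FOXO1, a factor that drives SOD2 and CAT in other cells, measured 21.2, 8.39 and 14.4 CPM in control, 1.44, 2.17 and 2.41 in low glucose, and 4.07, 3.20 and 5.07 with BHB. None of the 3 overlapped with control. In low glucose their log2 fold changes were -2.28, -1.15 and -2.87 (edgeR adjusted p = 0.00541, 0.00505 and 0.00165), called without any 1 library. With BHB they were -1.97, -0.99 and -1.84 (adjusted p = 0.0180, 0.0180 and 0.0191), and 0 of the 3 passed without control replicate 3 or BHB replicate 3, with adjusted p from 0.0517 to 0.0958. The BHB call of FOXO1 was also lost without control replicate 1 (0.0878) or BHB replicate 1 (0.0716) or 2 (0.0571), that of MAOA without control replicate 2 (0.0834) or BHB replicate 1 (0.0701), and that of HIF1A without control replicate 2 (0.0750).

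Of 14 tested metallothionein and metal handling genes, edgeR, DESeq2 and limma-voom called 0 in any comparison. In low glucose, 2 were lower (14.3%, against 6.33% of all genes) and 0 higher (against 0.996%) at an unadjusted p under 0.05. These were the iron exporter SLC40A1 (-0.80, edgeR adjusted p = 0.505) and the iron carrier TF (-2.09, adjusted p = 0.673). CCS, the copper chaperone of SOD1, had 0.44 between the low glucose media (unadjusted p = 0.0277, adjusted p = 1.000). Between those media, edgeR called 0 genes of any list.

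Markers of cumulus and granulosa cells, which surround the oocyte during maturation, were lower beside GSTA1. These markers, like the other lists, were chosen with earlier results of these data known, so shares describe them and do not test enrichment. Of 25 tested markers, edgeR called 8 lower in low glucose (32%, against 2.02% of all genes) and 7 with BHB (28%, against 1.38%), and 0 higher. At an unadjusted p under 0.05, 12 were lower in each medium (48%, against 6.33% of all genes in low glucose and 5.5% with BHB). The median log2 fold change was -1.09 in low glucose and -0.87 with BHB, with 21 and 19 markers below 0. The libraries lay below control without overlap for 11 markers in low glucose (44%, against 8.85%) and 9 with BHB (36%, against 8.56%). NR5A1, the steroidogenic transcription factor, measured 7.14, 6.69 and 8.78 CPM in control, 1.21, 1.24 and 0.865 in low glucose, and 1.15, 2.89 and 1.82 with BHB, so that its control libraries stood above all others. It fell by 2.77 on the log2 scale in low glucose (edgeR adjusted p = 0.00185) and by 1.95 with BHB (adjusted p = 0.0164). The matrix proteoglycan LUM fell by 3.28 and 3.50 (adjusted p = 0.00222 and 0.00325). The other markers that edgeR called lower were DCN, SERPINE2, NR5A2, CD44 and VCAN in both media, and GREM1 in low glucose. DESeq2 called these as well, and limma-voom called all but GREM1.

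Beyond these 8 markers, none passed by edgeR in either medium. DESeq2 also called INHA, an inhibin subunit, in low glucose (adjusted p = 0.00331), where all 3 libraries were at 0, beside 1.11, 0 and 0.609 CPM in control. Among the steroidogenic and hormone receptor genes, CYP11A1, CYP19A1 and FSHR had log2 fold changes of -0.42, -0.12 and 0.21 in low glucose and -0.55, 0.08 and -0.22 with BHB, and HSD3B1 had 0.39 in each. The summed level of the 25 markers was 1129 to 1191 CPM in control, 681 to 1468 in low glucose and 779 to 1314 with BHB, and of the defining markers only INHA was at 0 in any library. Without low glucose replicate 3, 5 markers passed in low glucose, and without control replicate 3 or BHB replicate 3, 4 passed with BHB. In the latter pair of fits NR5A1 was not called with BHB (0.0916 and 0.0895). What part such cells had in the lower GSTA1 was not tested.

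**Figure D5:**
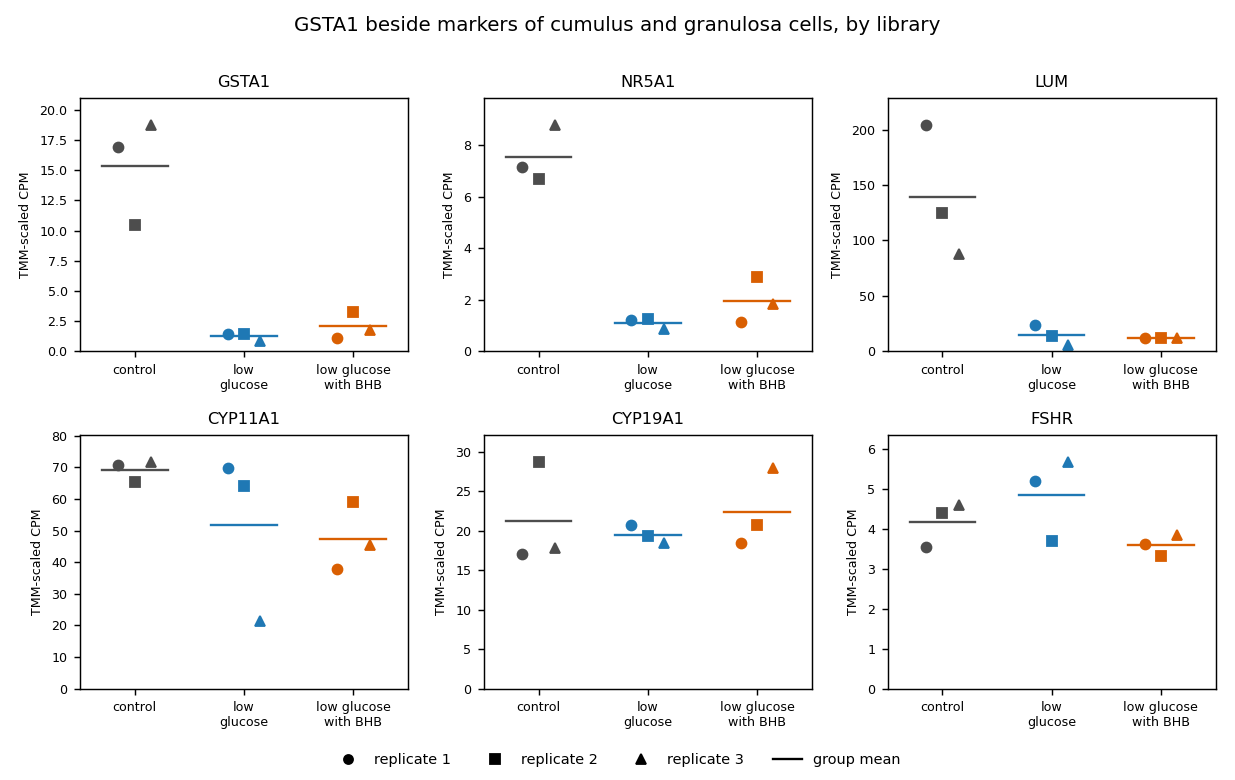
TMM-scaled CPM (y axis, from 0) of GSTA1 and of 5 markers of cumulus and granulosa cells in each library; symbols mark replicates and lines group means. GSTA1, NR5A1 and LUM are high in the 3 control libraries and low in the other 6, while CYP11A1, CYP19A1 and FSHR overlap between control and low glucose.

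Of the blastocyst's own lineage markers, edgeR called 0 of 8 trophectoderm and 0 of 4 inner cell mass genes against control, and DESeq2 and limma-voom also called 0. At an unadjusted p under 0.05, 2 trophectoderm genes were higher in low glucose (against 0.996% of all genes) and 1 with BHB (against 1.82%). No inner cell mass gene had such a p, and no trophectoderm gene was lower at it. Of 5 hypoblast genes, 4 had a log2 fold change above 0 in low glucose (median 0.17) and 3 with BHB (median 0.29). GATA4 went the other way and fell in both media, by 1.45 (edgeR adjusted p = 0.00802) and 1.13 (adjusted p = 0.0432). It was the 1 hypoblast gene called (20%, against 2.02% of all genes in low glucose and 1.38% with BHB). GATA6 and SOX17 did not pass. The BHB call of GATA4 was lost without any 1 control library, low glucose replicate 3 or BHB replicate 1 or 3, with adjusted p from 0.0538 to 0.219. Of 6 tested blood and macrophage and 6 oocyte markers, edgeR, DESeq2 and limma-voom called 0, and 0 had an unadjusted p under 0.05.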

How the data were processed

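RNA was measured in 9 libraries of pooled blastocysts. The authors deposited a table of estimated counts, of which 19.2% were not whole (tolerance 1e-06). The tools fastp, kallisto and DESeq2 and the build bosTau9 are named in the submitters' processing notes, while versions, roles and annotation were not given in the sources used here. Reads that match several transcripts are divided by estimation in kallisto. Groups came from the labels' titles. The members and the gene lists were chosen with earlier results of these data known.

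Estimated counts were rounded and fitted in edgeR 4.0.16 (R 4.3.3) as 1 quasi-likelihood model of 9 libraries with 3 group means, TMM factors and filterByExpr (minimum count 10, total 15), which kept 16469 genes. Tests were two-sided with Benjamini-Hochberg adjustment over all of these and a threshold of 0.05. Each SE is the fold change divided by the root of its F statistic. The common biological coefficient of variation was 0.322. No replicates agreed within sampling noise (smallest chi-square per degree of freedom 39.2). CPM values are TMM-scaled and not per length. The genes given in full were members called, members with an unadjusted p under 0.05 and the 2 with most counts per role. So were a set of standard NRF2, glutathione and peroxide genes. From lists, genes called by edgeR were named, some without values, and in some lists also those of smallest p.

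Deviations from group means correlated at 0.115, 0.243 and 0.102 between same-numbered libraries of the low glucose media. All 6 of these libraries were closest to their own number, a pairing that the labels do not give. Against control the correlations ran from 0.0417 to 0.144, a range that overlaps those values. There 4 of 6 libraries in low glucose and 3 of 6 with BHB were closest to their own number, so pairing with control stays unsettled. The steps were tested on simulated data. Alternatives were RLE factors, other filters, a replicate block, fits of 6 libraries, DESeq2 1.42.0, limma-voom (limma 3.58.1) and leaving out each library. Fitting genes taken as copies (GSTA1, GSTA2 and GSTA5, and the pairs under GSTM1 and GSTP1) as 1 feature was added after the data were seen. All 52 members matched a RefSeq table of assembly ARS-UCD2.0, another build, so sequences and coordinates were not used here. Figures used matplotlib 3.10.9.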

Additional observations from a re-analysis of the deposited data

How the results depend on the processing

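GSTA1 was called lower in all 17 alternatives of each comparison with control, with log2 fold changes from -3.86 to -3.42 in low glucose and from -3.40 to -2.60 with BHB. The number of members called in low glucose, 1 at first, was 2 without a filter, with limma-voom, from the 6 libraries compared and with the replicate block, and 3 with DESeq2; leaving out 1 library gave 1 to 2. With BHB it was 2 with DESeq2, limma-voom and the replicate block, and 1 to 2 when 1 library was left out. The added members were SOD3 and GPX8. Over all genes, DESeq2 called 557 in low glucose and 420 with BHB (edgeR 334 and 228), and 2 between the low glucose media, where edgeR called 0; leaving out 1 library gave 196 to 391 and 91 to 257. The fewest, 196 and 91, came without control replicate 3. The cause was not tested. The replicate block gave 405 and 278 genes against control and 0 between the low glucose media, where it changed no call. Against control it added SOD3 (adjusted p = 0.0296 in low glucose and 0.0445 with BHB) and TXNIP (0.0137 in low glucose) and lost GGT7 in low glucose (0.0589). Between the low glucose media all 6 libraries were closest to their own number, against 4 of 6 in low glucose and 3 of 6 with BHB beside control.

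No member called by edgeR lost its call or changed sign in any alternative. Of the other member values recomputed, 14 gained a call and 173, none called, changed sign. Low counts limit some members: in the library with the lowest total, 1 count was 0.0168 CPM. Each group has 3 libraries, and the 3 controls serve both comparisons.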
